A study of Homo sapiens with 6 samples.

Results

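Cytotoxic lymphocytes kill their targets with secretory granules, and the genes of these granules were read here in RPMI-8402, a long-established line from a human T-cell acute lymphoblastic leukaemia (T-ALL). The 10 genes were chosen by name: the granzymes *GZMA*, *GZMB*, *GZMH*, *GZMK* and *GZMM*, the pore former *PRF1* (perforin), the membrane-lytic peptide *GNLY* (granulysin), the granule membrane protein *NKG7*, the proteoglycan *SRGN* (serglycin) and the cysteine protease *CTSW* (cathepsin W). Each had 1 probe, so the 10 genes made up 10 of the 57105 probes kept and 10 of the 19699 genes with a name. The differences of *GZMB* and *GZMH* between the groups were known when the set was proposed, so their values are given as a description without a p-value, and the counts of members include them.

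The cells had received lentivirus for a control hairpin, for a hairpin RNA that targets *GATA3* (group shGATA3) or for a hairpin RNA that targets *TCF7*, which encodes TCF1 (group shTCF1). All 3 groups were the same line, and the labels of all of them give a sort for cells positive for enhanced green fluorescent protein (EGFP) at 48 h after transduction. Cy3-labelled cRNA from 100 ng of RNA was hybridised to 1-colour Agilent arrays, 2 per group, from what the study calls independent experiments. A line in culture without other cells, read at 1 time point with hairpins that the labels name by target only, is what the comparisons can speak of. Because the samples were bulk RNA, fewer cells that make a transcript and less of it per cell cannot be told apart.

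The hairpin labels were checked on their own targets. *TCF7* fell on the shTCF1 arrays by 1.31 on the log2 scale relative to control (adjusted p = 0.00394 in limma, probe A_23_P7582), and its other probe fell by 1.48. *GATA3* did not pass the test on the shGATA3-labelled arrays, with a log2 difference of -0.05 from control (adjusted p = 0.795). They are therefore called the shGATA3-labelled arrays, and each direction given for them rests on the label alone. All 6 arrays came from 1 slide and 1 scan, the 2 control arrays from row 2 of it and the 4 hairpin arrays from row 1. For comparisons with control the slide row and the group therefore cannot be told apart. In row 1 the shTCF1 arrays held columns 1 and 2 and the shGATA3-labelled arrays columns 3 and 4. In the direct comparison the slide column and the group likewise cannot be told apart. The 75th percentile of the intensities was 269.6 and 287.4 on the control arrays and 165.3 to 178.8 on the others before normalization, 51.02 to 56.18% of probes were well above background, and arrays of 1 group correlated at 0.993 to 0.994 against 0.98 to 0.987 between groups. Of the markers of the T lineage, 8 of 8 had a signal well above background on every array. For 8 NK markers the number was 4 (*KLRC1*, *NCR1*, *NCR3* and *NCAM1*), and *KLRD1*, *KLRF1*, *FCGR3A* and *CD160* had none on any array.

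As background, granzymes are serine proteases that are stored with perforin and serglycin in acidic granules and enter a target cell when the granule content is released at the contact site. Granzyme B cleaves after aspartate and starts apoptosis, granzyme A cleaves after basic residues, and granzymes H, K and M have specificities of their own. The genes lie in several clusters. *GZMB* and *GZMH* sit beside *CTSG* (cathepsin G) and *CMA1* (mast cell chymase) at 14q11.2, *GZMA* and *GZMK* at 5q11.2 and *GZMM* at 19p13.3. NK cells and activated cytotoxic T cells make most of these products, while developing T cells make few.

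Of the 10 members, 6 had an entry in the RefSeq table of promoters (GRCh38.p14). *GZMK*, *GZMM*, *SRGN* and *CTSW* were not matched. The 250 bases before the start are shown for *GZMB* (chr14:24634191-24634440, minus strand), *GZMH* (chr14:24609686-24609935, minus strand) and the neighbouring *CTSG* (chr14:24576251-24576500, minus strand), since these adjacent protease genes had differences of the same sign, and for *GZMA* (chr5:55102396-55102645, plus strand), whose differences had the opposite sign. Capitals mark matches to the letters searched on either strand.
GZMB: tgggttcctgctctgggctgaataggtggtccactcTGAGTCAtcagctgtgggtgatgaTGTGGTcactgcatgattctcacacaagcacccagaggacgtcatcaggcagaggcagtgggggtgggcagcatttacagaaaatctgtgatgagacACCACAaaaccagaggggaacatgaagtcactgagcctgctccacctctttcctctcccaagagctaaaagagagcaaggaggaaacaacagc
GZMH: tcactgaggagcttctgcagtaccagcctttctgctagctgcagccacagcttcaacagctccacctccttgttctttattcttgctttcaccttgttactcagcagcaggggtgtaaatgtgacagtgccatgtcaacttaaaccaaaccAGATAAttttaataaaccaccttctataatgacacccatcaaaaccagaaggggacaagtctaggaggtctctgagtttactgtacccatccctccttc
CTSG: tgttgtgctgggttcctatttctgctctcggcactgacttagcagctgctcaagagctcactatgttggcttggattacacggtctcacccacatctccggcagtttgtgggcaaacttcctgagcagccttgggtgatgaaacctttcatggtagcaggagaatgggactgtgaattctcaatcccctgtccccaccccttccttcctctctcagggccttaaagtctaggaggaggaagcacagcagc
GZMA: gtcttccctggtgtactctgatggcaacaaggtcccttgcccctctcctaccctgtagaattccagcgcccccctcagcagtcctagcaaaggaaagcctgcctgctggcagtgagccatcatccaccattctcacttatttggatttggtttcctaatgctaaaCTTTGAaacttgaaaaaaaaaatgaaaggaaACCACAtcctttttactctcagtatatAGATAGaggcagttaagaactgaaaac

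The letters searched were AGATAA or the variants TGATAA or else AGATAG or else TGATAG for GATA factors, CTTTGA for TCF/LEF factors, TGTGGT for RUNX factors, GGTGTGA for T-box factors and TGANTCA for AP-1. A match to the GATA letters was present in 22.9% of 27305 promoters of the same length, to the TCF/LEF letters in 11.4%, to the RUNX letters in 10.9%, to the T-box letters in 2.72% and to the AP-1 letters in 6.6%. In *GZMB* the AP-1 letters lay at bases 214 to 208 before the start and the RUNX letters at 190 to 185 and at 93 to 88. In *GZMH* the GATA letters lay at bases 99 to 94, and the window of *CTSG* had no match. In *GZMA* the TCF/LEF letters lay at bases 85 to 80, the RUNX letters at 54 to 49 and the GATA letters at 27 to 22. *PRF1*, not shown, held the TCF/LEF and RUNX letters, *GNLY* the RUNX letters, and *NKG7* none. These matches are descriptions of the sequence and not binding sites.

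**Figure D1:**
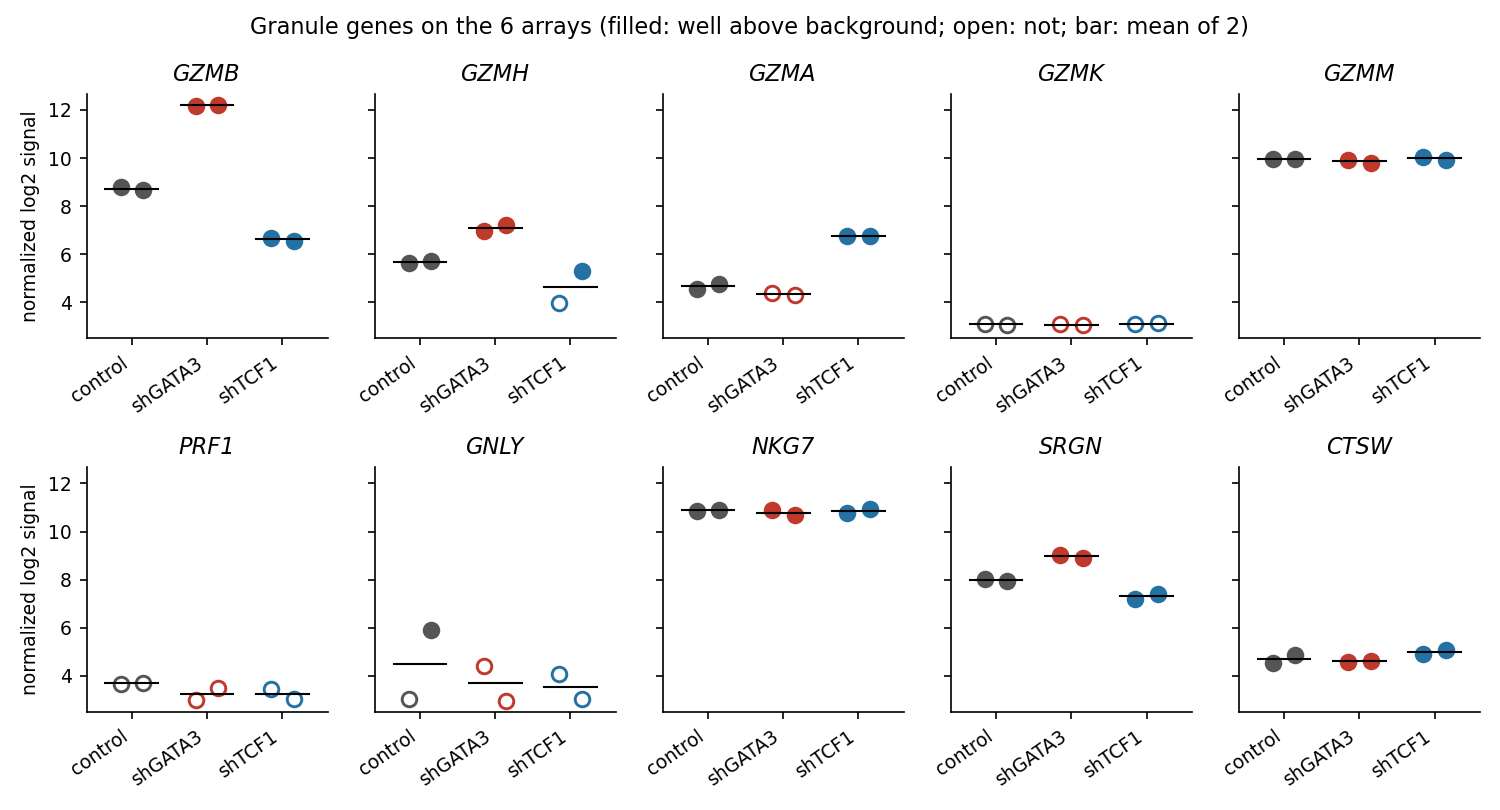
Normalized log2 signal (y axis) of each of the 10 granule genes on the 2 arrays of each group (x axis), with filled points for a probe well above background, open points for a probe that was not, and a bar at the mean of the 2 arrays. *GZMB*, *GZMH* and *SRGN* are highest on the shGATA3-labelled arrays and lowest on the shTCF1 arrays, *GZMA* is highest on the shTCF1 arrays at 6.76 and 6.75, and *GZMM* and *NKG7* lie level.

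The granule genes did not move as a block. *GZMB* was 11.0-fold higher on the shGATA3-labelled arrays and 4.3-fold lower on the shTCF1 arrays than on the control arrays. *SRGN* moved in the same directions by smaller steps, whereas *GZMA* was 4.23-fold higher on the shTCF1 arrays. *GZMM* and *NKG7*, both well above background on all arrays, had log2 differences between -0.13 and 0.04. *GZMK* and *PRF1* were not well above background on any array.

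*GZMB*, granzyme B, was spotted 5 times on each array. Its normalized log2 signal was 8.78 and 8.68 on the control arrays, 12.15 and 12.22 on the shGATA3-labelled arrays and 6.69 and 6.56 on the shTCF1 arrays. The 3 groups did not overlap and were far apart beside the gap between replicates. Before normalization its mean intensity was 556 and 568 on the control arrays, 3920 and 4240 on the shGATA3-labelled arrays and 88.5 and 74.3 on the shTCF1 arrays. The coefficient of variation over the 5 spots was 1.65 to 4.76% on the control arrays and the shGATA3-labelled arrays, and 12.5 and 20.6% on the dimmer shTCF1 arrays. The log2 difference from control was 3.46 (SE 0.106, n = 2 arrays a group) on the shGATA3-labelled arrays and -2.11 (SE 0.106) on the shTCF1 arrays, and the direct difference between the hairpins was 5.56 (SE 0.106), a 47.3-fold range. Among the 31134 probes tested, these differences ranked 3 from the top, 80 from the bottom and 2 from the top. No processing alternative turned their direction. Over the alternatives on the scanner files the differences spanned 3.28 to 3.52, -2.17 to -1.53 and 4.82 to 5.63.

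*GZMH*, granzyme H, is the closest relative of *GZMB* and lies next to it. Its normalized log2 signal was 5.62 and 5.7 on the control arrays, 6.97 and 7.23 on the shGATA3-labelled arrays and 3.98 and 5.31 on the shTCF1 arrays. The groups did not overlap and lay in the order seen for *GZMB*, but only 1 of the 2 shTCF1 arrays measured it well above background, and those 2 arrays were far apart. The log2 difference was 1.43 (SE 0.404) for the label shGATA3 and -1.01 (SE 0.404) for shTCF1, both against control, and the direct difference was 2.45 (SE 0.404). Over the alternatives on the scanner files these spanned 0.89 to 1.59, -1.68 to -0.35 and 1.26 to 3.11, with no change of direction. The second depended most on 1 array, at -0.35 without shTCF1 replicate 1 and -1.68 without shTCF1 replicate 2. Whether the *GZMH* probe also takes up *GZMB* transcript was not tested.

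*SRGN*, serglycin, is the proteoglycan that binds granzymes and perforin in the granule. Its normalized log2 signal was 8.03 and 7.94 on the control arrays, 9.04 and 8.9 on the shGATA3-labelled arrays and 7.21 and 7.42 on the shTCF1 arrays. No groups overlapped, and the order was again that of *GZMB*. It rose 1.98-fold on the shGATA3-labelled arrays (log2 difference 0.99, SE 0.121, adjusted p = 0.0128 in limma). It fell by 0.67 on the log2 scale on the shTCF1 arrays (SE 0.121, adjusted p = 0.0207 in limma). The direct difference was 3.15-fold (log2 1.65, SE 0.121, adjusted p = 0.00221 in limma) and was called whichever array was left out. The rise was not called when any of the 4 arrays compared was left out (highest adjusted p = 0.0639 in limma), and the fall was not called without control replicate 1, control replicate 2 or shTCF1 replicate 1 (up to 0.112).

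*GZMA*, granzyme A, ran the other way. Its normalized log2 signal was 4.56 and 4.78 on the control arrays, 4.39 and 4.29 on the shGATA3-labelled arrays, where it was not well above background, and 6.76 and 6.75 on the shTCF1 arrays. The shTCF1 arrays stood above the other 4, and the replicates within that group were nearly equal. It rose 4.23-fold on the shTCF1 arrays relative to control (log2 difference 2.08, SE 0.117, adjusted p = 0.00252 in limma), which was rank 14 from the top of the 31134 probes. Against the shGATA3-labelled arrays its level on the shTCF1 arrays was 5.31-fold higher (adjusted p = 0.000871 in limma). Where a lower bound is given for a dim group, the mean of the brighter group is set against a floor on each dim array. That floor is the higher of the dim probe's own signal and the lowest signal well above background. For *GZMA* the rule left the fold at 5.31, since its dim signals lay above those lowest signals, 4.13 and 4.08, so 5.31 is an estimate and not a minimum. The difference of -0.33 between the shGATA3-labelled arrays and control did not pass the test (adjusted p = 0.147 in limma). The differences that passed were called whichever array was left out, and the rise over control was 0.97 to 2.37 across the alternatives on the scanner files. The direct difference, -2.41 as reported, was -2.72 to -1.05 across them, so the fold of 5.31 holds only under the normalization used here, and the smallest difference came with normexp background correction.

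*GZMM*, granzyme M, is found mainly in NK cells and innate-like T cells. Its normalized log2 signal was 9.94 and 9.95 on the control arrays, 9.91 and 9.81 on the shGATA3-labelled arrays and 10.06 and 9.92 on the shTCF1 arrays. The groups lay close together, and none of the 3 differences passed the test (-0.09, 0.04 and -0.13, SE 0.105; adjusted p = 0.64, 0.79 and 0.512 in limma). *NKG7*, which is needed for granule release, gave 10.86 and 10.9 on the control arrays, 10.88 and 10.69 on the shGATA3-labelled arrays and 10.77 and 10.93 on the shTCF1 arrays. All its groups overlapped, and its differences of -0.1, -0.02 and -0.07 (SE 0.118) did not pass (adjusted p = 0.64, 0.898 and 0.767 in limma). A p that misses the threshold does not show equal levels.

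*CTSW*, a protease of cytotoxic lymphocytes, was dim but well above background on all 6 arrays. It gave 4.53 and 4.87 on the control arrays, 4.59 and 4.62 on the shGATA3-labelled arrays and 4.91 and 5.09 on the shTCF1 arrays, and no difference passed the test (-0.09, 0.3 and -0.39, SE 0.145; adjusted p = 0.729, 0.198 and 0.18 in limma). The shTCF1 arrays were above the rest for this gene, by less than the test could call. *GZMK* gave 3.04 to 3.12 and *PRF1* 3.01 to 3.72, not well above background on any array. *GNLY* was well above background on control replicate 2 only, at 5.91 against 3.05 on control replicate 1, and lay between 2.96 and 4.41 on the hairpin arrays. These 3 genes were not tested.

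Of the 7 members tested, 2 were called between the shGATA3-labelled arrays and control, both higher (*GZMB* and *SRGN*), where 6.93% of the 14491 genes tested were called (2.79% higher, 4.14% lower). Between shTCF1 and control 3 were called, *GZMA* higher and *GZMB* and *SRGN* lower, where 16.2% of genes were (6.26% higher, 9.99% lower). Between the shGATA3-labelled and shTCF1 arrays 4 were called, *GZMB*, *GZMH* and *SRGN* higher and *GZMA* lower, where 6.58% were (3.75% higher, 2.83% lower). The groups did not overlap for 5, 5 and 6 of the 7 members, beside 63.0, 69.2 and 53.4% of all genes. The median log2 difference of the 7 was -0.09, -0.02 and -0.07, beside -0.03, -0.05 and 0.0 over all genes. The members were chosen with some of these differences known, and nothing is read from these counts. The comparisons with control share the control arrays.

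*CTSG*, whose product cathepsin G is stored in granules of myeloid cells, is the gene next to *GZMH*. Its normalized log2 signal was 13.61 and 13.69 on the control arrays, 14.59 and 14.86 on the shGATA3-labelled arrays and 12.96 and 13.04 on the shTCF1 arrays. No groups overlapped, in the order of *GZMB*, *GZMH* and *SRGN*. It rose 2.1-fold on the shGATA3-labelled arrays (log2 difference 1.07, SE 0.126, adjusted p = 0.0116 in limma), a call lost without control replicate 1 (adjusted p = 0.0691). It fell by 0.65 on the log2 scale on the shTCF1 arrays (SE 0.126, adjusted p = 0.0244 in limma), a call lost without any of the 4 arrays compared (up to 0.111). The direct difference was 3.3-fold (log2 1.72, adjusted p = 0.00221 in limma) and was called whichever array was left out.

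The genes on either side did not pass the test. *CMA1*, on the far side of *CTSG*, gave 6.27 and 6.09 on the control arrays, 6.04 and 5.76 on the shGATA3-labelled arrays and 6.17 and 6.07 on the shTCF1 arrays, with log2 differences of -0.28, -0.06 and -0.22 (adjusted p = 0.251, 0.771 and 0.391 in limma). *STXBP6*, the next gene tested beyond *GZMB* with 1 gene between them, gave differences of -0.24, -0.63 and 0.39 (adjusted p = 0.59, 0.141 and 0.411 in limma). The difference between *CTSG* and its neighbours was not itself tested. At 5q11.2 the nearest tested genes on each side of *GZMA* and *GZMK* were *SNX18* and *DHX29*, and none of their differences from control, between -0.23 and -0.13, passed the test. Beside *GZMM*, the ubiquitin-conjugating enzyme *CDC34* fell by 0.7 on the shTCF1 arrays (adjusted p = 0.0268 in limma) and *BSG* (basigin) rose by 0.78 (adjusted p = 0.0109 in limma), while the difference of *GZMM* was 0.04. Both calls were lost without control replicate 1 or control replicate 2, and that of *CDC34* also without either shTCF1 array.

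**Figure D2:**
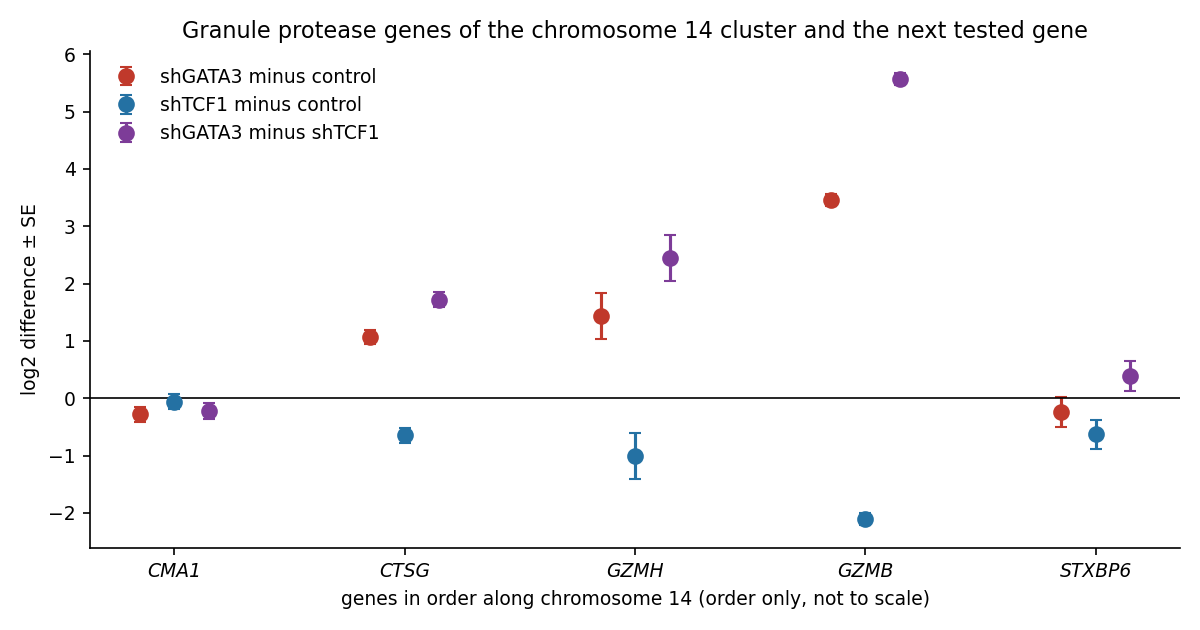
Log2 difference with its standard error (y axis) for the protease genes at 14q11.2 and the next tested gene in chromosome order (x axis, order only), in each of the 3 comparisons (colours; n = 2 arrays a group). *CTSG*, *GZMH* and *GZMB* lie above 0 for the label shGATA3 against control and below 0 for shTCF1 against control, with direct differences of 1.72, 2.45 and 5.56, while *CMA1* lies between -0.28 and -0.06.

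Over the 6 arrays the 5 genes whose mean-centred values lay nearest to those of *GZMB* were *GADD45G* (root-mean-square distance 0.415 on the log2 scale), *ECRG4* (0.483), *ARPP21* (0.587), *GRM8* (0.642) and *SLC51A* (0.905), where *GZMB* itself spread by 2.29 around its mean. *ECRG4*, *ARPP21* and *SLC51A* were not well above background on either shTCF1 array. *ARPP21* and *SLC51A* were above it on only 1 control array, so their low values lie near the background. *GADD45G*, a stress-response gene, gave 6.83 and 7.12 on the control arrays, 11.27 and 11.36 on the shGATA3-labelled arrays and 5.08 and 5.56 on the shTCF1 arrays. Its other probe had differences of the same sign in each comparison. The other probe of *ARPP21* was not called in any comparison and had the opposite sign between shTCF1 and control (0.25 against -0.81). The other probe of *GRM8* had differences of the same sign but smaller size (1.29, -0.37 and 1.66, against 2.43, -1.65 and 4.08) and was not called. By the same distance *GZMH* ranked 32 and *SRGN* 66 of 14490 genes, *NKG7* 8995, *GZMM* 9973 and *CTSW* 13044. *GZMA* ranked 14476, among the genes least like *GZMB*. The genes of this paragraph were picked by their pattern, and these values are a description.

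Markers of several cell types were read beside these results. The 8 NK markers summed to a normalized signal of 555 to 575 on the control arrays, 856 to 882 on the shGATA3-labelled arrays and 406 to 544 on the shTCF1 arrays on a linear scale. Of the 4 tested genes of that list *NCAM1* (the NK antigen CD56) rose by 1.43 (SE 0.117) on the shGATA3-labelled arrays. It fell by 0.79 (SE 0.117) on the shTCF1 arrays, and by 0.45 with normexp. The study names *NCAM1*, with *GZMB* and *GZMH*, among NK genes higher after *GATA3* than after *TCF7* knockdown in this line. Its values are therefore a description without a p-value. *KLRC1*, *NCR1* and *NCR3* did not pass in any comparison, and the other 4 markers were not well above background. For the label shGATA3 against control those 3 genes differed by 0.03, -0.31 and 0.12, so the higher NK sum leans on *NCAM1*. *NCR1* gave 7.46 and 5.05 on the 2 shTCF1 arrays, which spreads their sum. Of 5 markers of mature cytotoxic T cells 3 had a signal well above background on every array. The list summed to 606 to 688 on the control arrays, 574 to 620 on the shGATA3-labelled arrays and 465 to 592 on the shTCF1 arrays. In it *ITGAL*, the integrin alpha L chain, rose by 1.13 for the label shGATA3 (adjusted p = 0.0272 in limma), a call lost without any of the 4 arrays compared. For the same label *CD8A*, *CD8B* and *KLRG1* differed from control by -1.02, -0.57 and -0.05, none of them called (adjusted p = 0.139, 0.387 and 0.86 in limma). The T-lineage list summed to 59300 to 61600 on the control arrays, 85600 to 101000 on the shGATA3-labelled arrays and 56700 to 75700 on the shTCF1 arrays. On that linear scale the sum leans most on its brightest gene, *CD3D*. *CD3D* differed by 0.81 for the label shGATA3 against control and was not called (adjusted p = 0.138 in limma). For that label *CD3E*, *CD3G* and *PTCRA* differed by 0.19, 0.62 and 0.6, and *CD247*, *CD5* and *CD7* by -0.35, -0.35 and -0.03, none of them called. Of the 8 T-lineage genes *CD2*, an adhesion receptor of T and NK cells, fell by 2.19 on the shTCF1 arrays (adjusted p = 0.002 in limma) and by 0.47 for the label shGATA3 (adjusted p = 0.0439 in limma; lost in every fit that left out an array). *CD3G*, a chain of the T-cell receptor complex, rose by 0.63 on the shTCF1 arrays (adjusted p = 0.037 in limma), a call lost when any of those 4 arrays was left out. Among the 6 monocyte and granulocyte markers with a probe, 4 had a signal well above background on every array, with a summed signal of 476 to 499 on the control arrays, 496 to 515 on the shGATA3-labelled arrays and 418 to 452 on the shTCF1 arrays. The mast cell and basophil list summed to 150 to 156, 158 to 169 and 165 to 181, with *TPSAB1* and *MS4A2* not well above background on any array. Of these 2 lists, *CST3* (cystatin C) fell by 0.47 on the shTCF1 arrays and *HDC* (histidine decarboxylase) rose by 0.5 (adjusted p = 0.0289 and 0.0342 in limma), and each call was lost when any of the 4 arrays compared was left out. The samples were a line in culture without other cells, so these lists describe transcripts of that line. How they relate to the granule results was not tested.

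The other genes of the granule pathway were read from a list of 67, of which 66 had a probe and 55 were tested. Between the shGATA3-labelled arrays and control 5 were called (2 higher, 3 lower; 9.09% beside 6.93% of all genes). Between shTCF1 and control 9 were called (4 higher, 5 lower; 16.4% beside 16.2%), and between the hairpins 10 (5 higher, 5 lower; 18.2% beside 6.58%). The median difference of the 55 was -0.13, -0.05 and -0.06, beside -0.03, -0.05 and 0.0 over all genes.

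In the list of granule maturation and cargo sorting, 10 of 10 genes were tested. *LYST*, which controls the size of lysosome-related organelles and is mutated in Chediak-Higashi syndrome, gave 5.71 and 5.76 on the control arrays, 6.8 and 6.75 on the shGATA3-labelled arrays and 5.63 and 5.61 on the shTCF1 arrays. The shGATA3-labelled arrays stood apart from the other 4. *LYST* rose 2.06-fold for that label against control (log2 difference 1.04, SE 0.0953, adjusted p = 0.00599 in limma) and was called whichever array was left out, as was the direct difference of 1.15. With normexp these were 0.67 and 0.69, still called. *CTSH*, an aminopeptidase of granules, fell by 0.55 for the label shGATA3 (adjusted p = 0.0373 in limma), a call lost in every fit that left out an array. *CTSC*, the dipeptidyl peptidase that activates pro-granzymes, differed by -0.38 and 0.34 from control, neither of which passed the test (adjusted p = 0.127 and 0.119 in limma). Its direct difference of -0.72 passed (adjusted p = 0.0311 in limma), but was lost in every fit that left out an array. Its other probes had direct differences of -0.83 and -0.29, not called (adjusted p = 0.0633 and 0.174 in limma). On the shTCF1 arrays *CALR*, the calcium-binding chaperone that is also found in granules, rose by 0.46 (0.29 with quantile and 0.22 with normexp processing, neither called), a call also lost in every fit that left out an array, and *RAB27A*, the small GTPase of granule docking, fell by 0.54 (adjusted p = 0.0431 and 0.0256 in limma). The call of *RAB27A* did not survive the loss of any of the 4 arrays compared.

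Of the 14 genes of exocytosis and membrane fusion 12 were tested, and none was called for the label shGATA3 against control. *STXBP2*, the partner of syntaxin 11 in granule fusion, rose by 0.49 on the shTCF1 arrays (adjusted p = 0.027 in limma), and this call did not survive the loss of any of the 4 arrays compared. Between the hairpins the actin regulator *CORO1A* was 0.66 higher on the shGATA3-labelled arrays (adjusted p = 0.029 in limma) and the Rab27 effector *SYTL1* 0.52 lower, at a log2 difference of -0.52 (adjusted p = 0.047 in limma). Both calls were lost in every fit that left out an array, and *SYTL1* was not called on its other probes. *UNC13D*, the priming factor, was not called in any comparison (-0.31, -0.07 and -0.24).

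The inhibitors of granule proteases did not pass the test in any comparison, with 4 of 6 tested. *SERPINB9*, the intracellular inhibitor of granzyme B, gave 11.21 and 11.08 on the control arrays, 11.11 and 10.69 on the shGATA3-labelled arrays and 10.87 and 11.02 on the shTCF1 arrays. Its groups differed by -0.25, -0.2 and -0.04 (adjusted p = 0.381, 0.415 and 0.903 in limma). *SERPINB1* and *SERPINB6*, inhibitors of neutrophil-type proteases such as cathepsin G, differed by -0.33 and -0.46 for the label shGATA3 against control (adjusted p = 0.153 and 0.072 in limma).

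Of 12 granzyme substrates and SET-complex genes 11 were tested. *BID*, which granzyme B cleaves to engage mitochondria, gave 12.15 and 12.09 on the control arrays, 12.13 and 12.22 on the shGATA3-labelled arrays and 11.3 and 11.52 on the shTCF1 arrays. It fell by 0.71 on the shTCF1 arrays (adjusted p = 0.016 in limma), its other probe fell by 0.75, and the call was lost without shTCF1 replicate 1 or either control array. *DFFB*, the caspase-activated DNase, fell by 0.77 and 0.57 on the shGATA3-labelled and the shTCF1 arrays (adjusted p = 0.0288 and 0.037 in limma). Both calls of *DFFB* were lost without any of the 4 arrays compared, and its other probe gave differences of similar size, -0.56 and -0.76, that missed the threshold (adjusted p = 0.355 and 0.181 in limma). *SET* and *HMGB2* were not called in any comparison.

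Cytotoxic cells also use death ligands. A list of such ligands, their receptors and related cytokines held 9 genes, of which 5 were tested. *FASLG*, *LTA*, *IFNG* and *TNFRSF10A* were not well above background on both arrays of any group. *LTB*, lymphotoxin beta, gave 12.38 and 12.43 on the control arrays, 12.24 and 12.16 on the shGATA3-labelled arrays and 11.12 and 11.27 on the shTCF1 arrays. It fell by 1.21 on the shTCF1 arrays (adjusted p = 0.00502 in limma) whichever array was left out. *TNF* was 0.67 higher on the shGATA3-labelled arrays than on the shTCF1 arrays (adjusted p = 0.0171 in limma), a call lost without any of these 4 arrays.

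Of 16 transcription factors and Notch components known to act at granzyme and perforin genes 13 were tested. *EOMES*, *PRDM1* and *STAT4* were not well above background on both arrays of any group. *TBX21*, the T-box factor T-bet, was well above background on the shTCF1 arrays only, at 5.8 and 5.7 against 4.03 and 3.97 on the control arrays and 4.6 and 3.03 on the shGATA3-labelled arrays. The shTCF1 arrays stood above the other 4, by at least 2.94-fold over control, by the bound for dim groups and under the normalization used here. Over the label shGATA3 the same rule gave 2.66-fold. That value is an estimate and not a minimum, since the signal on shGATA3 replicate 1, 4.6, lay above the lowest signal there, 4.13. *TBX21* entered the tested probes through that group alone and was named after its values were seen, so its differences of 1.75 and -1.94 (SE 0.465) are given as a description.

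*RUNX3*, a factor of cytotoxic lineages, fell by 0.87 on the shTCF1 arrays (10.06 and 10.13 on the control arrays, 9.15 and 9.29 on the shTCF1 arrays; adjusted p = 0.0132 in limma) and by 0.69 on its other probe. Its call was lost without shTCF1 replicate 1 or either control array, and its difference of -0.5 for the label shGATA3 did not pass (adjusted p = 0.0781 in limma). *JUN*, a component of AP-1, gave 7.91 and 7.93 on the control arrays, 7.09 and 7.08 on the shGATA3-labelled arrays and 8.14 and 8.18 on the shTCF1 arrays. It fell by 0.84 for the label shGATA3 against control (adjusted p = 0.0101 in limma), a call lost without shGATA3 replicate 2 or either control array and kept at -0.48 with normexp. The direct difference of *JUN* between the hairpins was -1.07 (adjusted p = 0.00354 in limma), and -1.1 to -0.77 over the alternatives on the scanner files. *JUNB*, on the same list, was not called in any comparison (-0.08, -0.16 and 0.08). *NOTCH1* rose by 0.5 and 0.94 on the shGATA3-labelled and the shTCF1 arrays (adjusted p = 0.0387 and 0.00655 in limma). The first of these was not called on its other probe or in any fit that left out an array. *STAT5A*, a target of cytokine signals, rose by 0.86 on the shTCF1 arrays (adjusted p = 0.0149 in limma), a call lost without any of the 4 arrays compared.

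**Figure D3:**
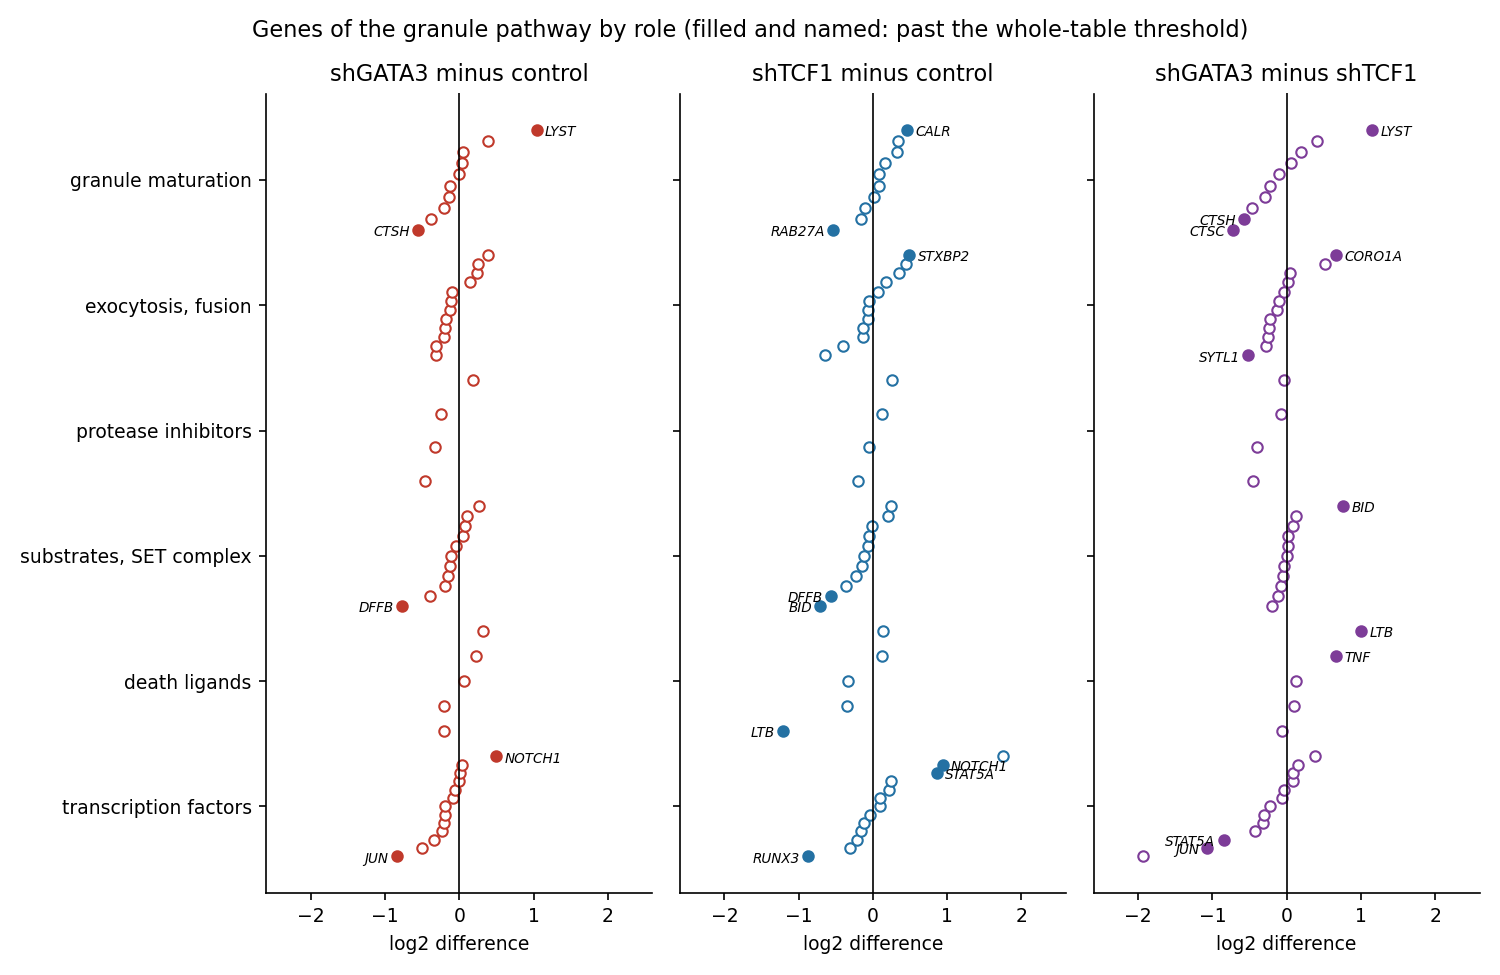
Log2 difference (x axis) of the 55 tested pathway genes, grouped by role (y axis), in each of the 3 comparisons; filled and named points passed the whole-table threshold, open points did not, and the height within a group only spreads the points. Most points lie near 0 in every role, *LYST* stands out for the label shGATA3 at 1.04, and the open point at 1.75 for shTCF1 against control is *TBX21*.

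**Figure D4:**
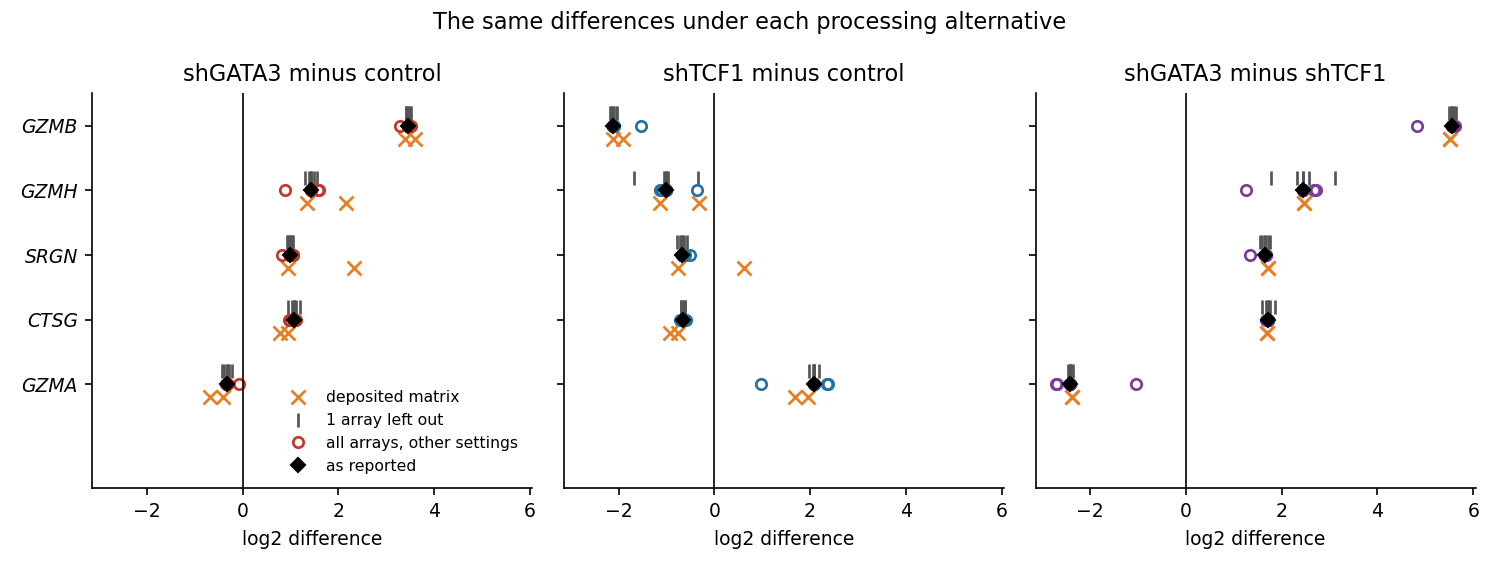
Log2 differences (x axis) of *GZMB*, *GZMH*, *SRGN*, *CTSG* and *GZMA* (y axis) as reported (diamonds), under other settings on all arrays (circles), with 1 array left out (ticks) and from the deposited matrix (crosses). The direction held in every setting drawn except for *SRGN* between shTCF1 and control, which was 0.63 in the deposited matrix and -0.67 as reported.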

How the data were processed

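The data are 6 arrays of 1 colour, 2 each for control, shGATA3 and shTCF1, grouped and numbered by sample title. The deposited intensity of a spot is, per the file headers, the output of Agilent Feature Extraction 10.7.1.1 (9.1 in the submitters' processing notes) after subtraction of its local background, and arrays had not been brought to a common scale. A series matrix from the authors holds log2 values that their methods describe as normalized by variance stabilization (VSN) before limma. It served only as an alternative, because its column named for control replicate 2 followed none of the arrays (highest r 0.832) and those of control replicate 1 and shGATA3 replicate 1 followed the other array of their group better than their own. The column of shGATA3 replicate 2 correlated at 0.98 with both arrays of its group.

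The intensities were normalized here with VSN, written for this work, which takes an arsinh equal to log2 at high signal, so that low signals have compressed differences. Each array's offset and scale were fitted to all probes kept, in 7 iterations. The probes kept were those up to the 0.9 quantile of the variance between arrays within each of 5 strata of mean signal. Outlier spots were left out, which removed 71 of 57176 probes, the spots of a probe were averaged, and no spot was saturated. Probes were tested if both arrays of any group had them well above background (31134 probes), with limma 3.58.1 in R 4.3.3, in 1 fit of all 6 arrays whose only term was the group (3 residual and 2.97 prior degrees of freedom), two-sided, with Benjamini-Hochberg adjustment over all of them and a threshold of 0.05. An exact permutation test of 2 arrays against 2 cannot go below 0.333, so none was run. The method was tested on simulated data. The number of arrays limits the precision.

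Probes were named through RefSeq accessions (GRCh38.p14 tables), which named 25682 probes, and a gene with several tested probes was read at the brightest. The text names all members, their nearest tested neighbours with *CMA1* and *CTSG*, the 5 genes nearest to *GZMB*, the hairpin targets, and up to 5 pathway genes called in each direction of each comparison. The members and lists were chosen with earlier results of these data known. Alternatives were other scalings, background corrections, filters and models, the deposited matrix, and leaving out each array. Replicate differences correlated at -0.04, -0.01 and 0.049 between groups, so no effect shared by replicate number was seen. Whether equal numbers mark paired experiments is not given by the titles and cannot be told from these values. The sequences of the array probes were not used here.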

Additional observations from a re-analysis of the deposited data

How the results depend on the processing

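The counts below are in the order shGATA3 against control, shTCF1 against control and shGATA3 against shTCF1, where the probes called were 2129, 5273 and 1925, the members called 2, 3 and 4 and the pathway genes called 5, 9 and 10. Scaling by the 75th percentile or by quantiles left these counts within 1.5 times, but moved the fraction of calls that went up from 42.0 to 53.6 and 53.0% in the first comparison and from 42.6 to 54.8 and 53.3% in the second. With normexp background correction, chosen after seeing the data because the correction planned on mean signals was not run, 4280, 7726 and 3281 probes and 13, 22 and 18 pathway genes were called. With an intensity trend the counts were 3912, 7344 and 3272 probes and 9, 16 and 15 pathway genes. With no filter on dim probes they were 560, 2268 and 901 probes and 2, 5 and 4 pathway genes. Probes well above background on all 6 arrays gave 6, 14 and 12 pathway genes and, in the third comparison, 2 members, since *GZMA* and *GZMH* were not among them. A fit of only the groups compared called 1454, 4921 and 1214 probes and 3, 10 and 6 pathway genes. With the replicate number as a block, 1328, 3845 and 1285 probes and 2, 8 and 7 pathway genes were called, and the member counts stayed at 2, 3 and 4. The deposited matrix gave 0 calls of probes, members or pathway genes in limma in each comparison, with 1814, 2652 and 1642 probes at an unadjusted p under 0.05. Without its column for control replicate 2, an alternative also chosen after seeing the data, it gave 0, 0 and 553 probes, 0, 0 and 3 members and 0, 0 and 2 pathway genes. Leaving out 1 array gave 437 to 1454, 865 to 4921 and 701 to 1214 probes, 1 to 3, 2 to 4 and 3 to 4 members and 1 to 3, 2 to 10 and 3 to 6 pathway genes, where a fit without an array of the third group is by construction the fit of only the groups compared.

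Changes of sign concerned values near 0, or the deposited matrix. *NKG7* turned to 0.09 (normexp) and 0.0 (without shGATA3 replicate 2) in the first comparison, to 0.02 (75th percentile), 0.01 (quantile and normexp) and 0.06 (without shTCF1 replicate 1) in the second, and to 0.08 (normexp), 0.05 (both forms of the deposited matrix), 0.03 (without shGATA3 replicate 2) and 0.01 (without shTCF1 replicate 2) in the third. *GZMM* turned to 0.07 (normexp, first comparison), -0.34 (deposited matrix, second) and -0.03 (without shTCF1 replicate 1, second). *CTSW* turned to 0.08 without control replicate 2 in the first, and *GATA3* to 0.0 under the 75th percentile. *CMA1* turned in the second to 0.0 (75th percentile), 0.02 (quantile, and without control replicate 1), 0.04 (normexp) and 0.03 (deposited matrix without control replicate 2). In the deposited matrix *SRGN* turned to 0.63, *BID* to 2.53, *CD2* to 0.85 and *RAB27A* to 0.14 in the second comparison, and *CD2* to 2.69 and *CTSH* to 2.22 in the first. The cause was not tested. Leaving out 1 array gave -0.19 to 0.0, -0.11 to 0.06 and -0.17 to 0.03 for *NKG7* in the 3 comparisons, -0.26 to 0.08 for *CTSW* in the first, and -0.03 to 0.11 for *GZMM* and -0.15 to 0.02 for *CMA1* in the second. Slide and scan as a block could not be fitted, since all arrays share both.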
